A study of Mus musculus with 16 samples.

Results

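The genes of fatty acid synthesis and desaturation were examined in the tibialis anterior, a shin muscle made mainly of fast fibres, in mice given recombinant GDF15, mice that were pair-fed and mice given vehicle. The 10 genes were taken by symbol from a list drawn up with earlier results of these data known: Acly, Acaca, Fasn and Me1, Elovl5 and Elovl6, Scd1 and Scd2, and the transcription factors Srebf1 and Mlxipl. All 10 are among the 14538 genes of the deposited table. The table holds 1 library per mouse, with 5 mice on vehicle, 6 on GDF15 and 5 that were pair-fed. All were wild-type mice of the C57BL/6 background (male and C57BL/6J, per the study's methods) that had been placed on the NASH diet, rich in fat and fructose, and at a housing temperature near 29 °C from 8 weeks of age, and that were housed singly during treatment. GDF15 was injected under the skin once a day, and the labels list several doses without saying which one these mice received. Each pair-fed mouse was given the amount of food that the GDF15-treated mice had eaten on the previous day, so that GDF15 against pair-fed asks what differed at matched intake, and pair-fed against vehicle what differed with the lower intake.

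Cells build fatty acids from acetyl-CoA in the cytosol. ATP citrate lyase supplies the acetyl-CoA, acetyl-CoA carboxylase turns it into malonyl-CoA, fatty acid synthase joins the units into palmitate, and malic enzyme provides part of the NADPH that is used up. Elongases of the ELOVL family lengthen the chains and stearoyl-CoA desaturases place a double bond in them, while SREBP-1 and ChREBP switch on many of these genes in response to insulin and to sugar, respectively. The pathway is most active in liver and adipose tissue. In muscle, malonyl-CoA is best known as a brake on the entry of fatty acids into mitochondria.

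None of the 9 genes with enough signal for a test passed both thresholds in any comparison. Scd2 came nearest by adjusted p-value, with less RNA in pair-fed than in vehicle-treated mice. Its difference stayed under the fold threshold, and it lost the adjusted p-value in several alternative fits. Fasn and Scd1 had the highest average in pair-fed mice, but both varied so much between mice of 1 group that the intervals of their differences were wide. Scd1 varied from mouse to mouse together with adipocyte markers. Outside these 10 genes, Mid1ip1, whose protein promotes the assembly of acetyl-CoA carboxylase into active filaments, rose in both groups with lower intake.

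RefSeq promoter windows, the 250 bases before an annotated transcription start in GRCm38.p6, were found for 8 of the 10 genes, some of which have several starts. Scd1 and Scd2 have no entry in that table. The windows were searched on both strands for the E-box CACGTG, which USF factors and, in spaced pairs of E-box-like elements, ChREBP can bind, the CCAAT box (CCAAT) of NF-Y, a sterol regulatory element core (TCACNCCAC) of SREBPs and the GC box (GGGCGG) of SP1. Of the 12 windows, 2 held an E-box, 6 a CCAAT box, 1 the sterol regulatory element core and 5 a GC box. Among all 32851 windows of the same length, 6.02% held an E-box, 33.8% a CCAAT box, 1.05% the sterol regulatory element core and 32.7% a GC box. The windows of 3 genes are shown, that of Fasn because its differences against vehicle were the largest of the 9 tested genes, and those of Elovl5 and Mlxipl because they hold the E-boxes. They lie at chr11:120824548-120824797 on the minus strand (Fasn), chr9:77917115-77917364 on the plus strand (Elovl5) and chr5:135089640-135089889 on the plus strand (Mlxipl, the upstream one of its 2 starts), and each is written 5′ to 3′ with motif matches of either strand in capitals.
Fasn: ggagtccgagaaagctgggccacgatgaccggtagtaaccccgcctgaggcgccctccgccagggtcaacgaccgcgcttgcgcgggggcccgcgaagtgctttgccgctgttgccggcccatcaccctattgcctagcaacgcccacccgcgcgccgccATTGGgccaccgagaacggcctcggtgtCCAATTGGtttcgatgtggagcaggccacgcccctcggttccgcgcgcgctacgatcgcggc
Elovl5: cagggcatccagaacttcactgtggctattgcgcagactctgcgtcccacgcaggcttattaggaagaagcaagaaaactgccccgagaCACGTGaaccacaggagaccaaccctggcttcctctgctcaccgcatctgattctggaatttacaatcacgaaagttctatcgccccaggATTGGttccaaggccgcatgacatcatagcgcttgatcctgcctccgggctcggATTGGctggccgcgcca
Mlxipl: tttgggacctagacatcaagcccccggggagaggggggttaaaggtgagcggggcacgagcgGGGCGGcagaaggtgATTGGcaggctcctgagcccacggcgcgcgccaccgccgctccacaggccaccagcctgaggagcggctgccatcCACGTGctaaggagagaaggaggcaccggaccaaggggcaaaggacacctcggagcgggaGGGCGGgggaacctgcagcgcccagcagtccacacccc
The Fasn window has 3 matches to the CCAAT box, of which 2 overlap on opposite strands, and none to the E-box. The Elovl5 window has 1 E-box and 2 CCAAT boxes, and the Mlxipl window has 1 E-box, 1 CCAAT box and 2 GC boxes. A match is only a run of letters, and binding was not measured.

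The libraries had an approximate depth of 9486310 to 15039282 reads, and the deposited log2 values were transformed back to normalized counts, the unit used below. Between 5.66% and 7.56% of each library's normalized counts came from Myh4, the myosin of the fastest fibres, and the liver gene Alb lay between 0 and 9.80 normalized counts. Myh7, the slow myosin heavy chain, stood apart in 3 libraries (1094 in GDF15-treated mouse 1, 746 in pair-fed mouse 3 and 481 in pair-fed mouse 6) and lay between 33.1 and 112 in the other libraries. The 11841 genes that averaged 10 normalized counts or more over all mice went into the test, which used limma on log2(normalized count + 1). A gene was called where the Benjamini-Hochberg adjusted p-value was under 0.1 and the log2 fold change exceeded 0.6 in either direction. At these thresholds 0.279% of the tested genes were called for GDF15 against pair-fed, 0.304% for GDF15 against vehicle and 0.819% for pair-fed against vehicle. The count among the 9 tested genes of fatty acid synthesis was 0 in each comparison. At an unadjusted limma p-value under 0.05 the counts were 2, 1 and 3 of 9, where 13.2%, 11% and 18.9% of all tested genes passed. With the adjusted p-value alone, 2.17%, 0.769% and 6.37% of all tested genes passed, and of the 9 only Scd2, for pair-fed against vehicle. Groups without any overlap of values were seen in 1.77%, 1.65% and 5.44% of all tested genes and in 0 of the 9. The median log2 fold change of the 9 was −0.08, 0.00 and 0.02 in the 3 comparisons, against 0.00 over all tested genes in each.

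**Figure D1:**
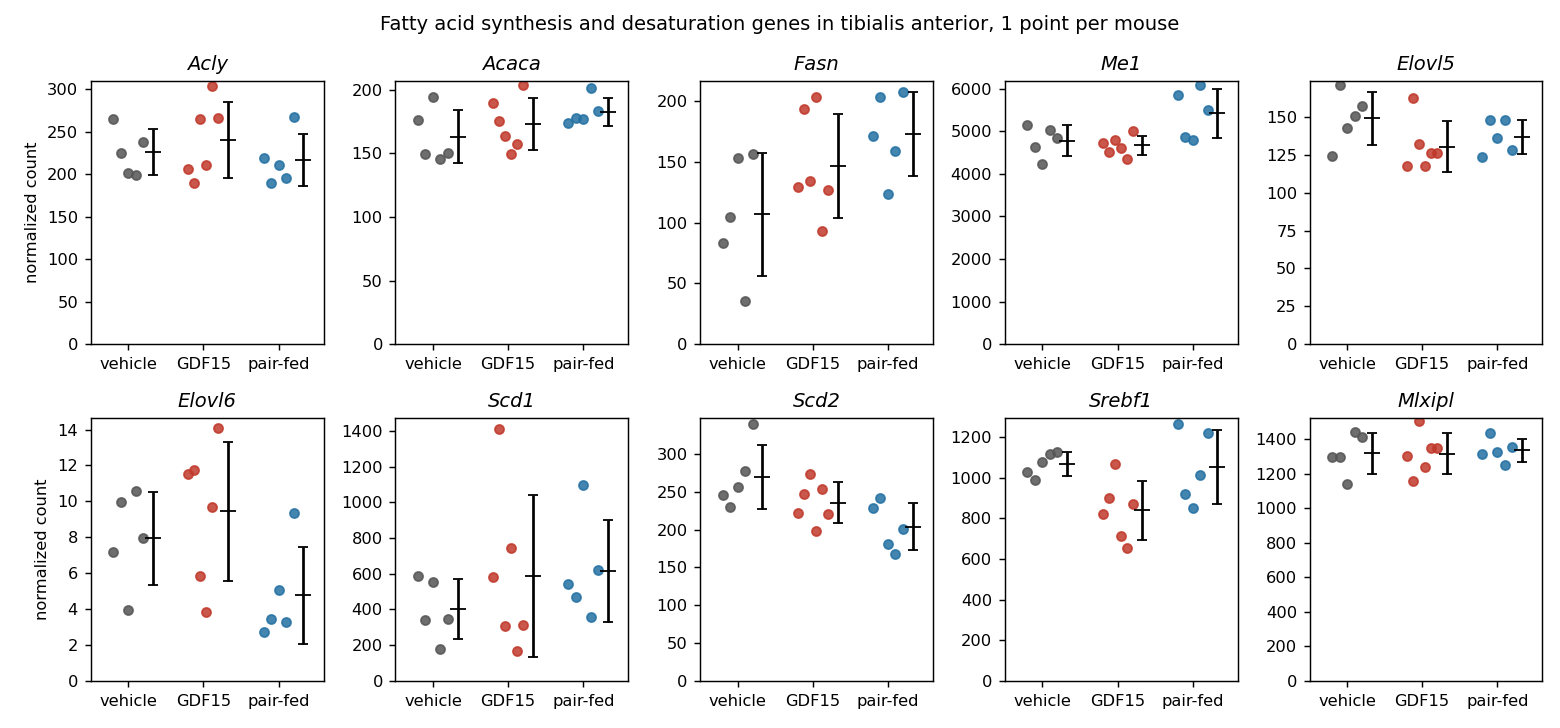
Normalized counts (y axes, linear from 0) of the 10 genes by group (vehicle grey, GDF15 red, pair-fed blue), 1 point per mouse, with the group mean and SD beside the points. The groups overlap in every panel; the Scd1 points spread from 169 to 1409 within the GDF15 group, while those of Mlxipl stay between 1137 and 1505 in all mice.

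The levels of the 10 genes were compared with each other per kilobase of the longest coding transcript marked as principal in GENCODE vM21. In vehicle-treated mice Me1 was the highest, at 1452 ± 110.5 normalized counts per kilobase (SD, n = 5). Mlxipl followed with 364 ± 33.2 and Srebf1 with 248 ± 13.7. These 3 genes were separated from each other and from the rest without overlap. Scd1 (82.9 ± 34.7), Elovl5 (53.6 ± 6.26), Acly (51.3 ± 6.15) and Scd2 (49.5 ± 7.78) formed a middle range in which each gene overlapped with its neighbour in the order. Acaca (17.2 ± 2.22) and Fasn (10.6 ± 5.05) lay lower and overlapped with each other, and Elovl6 came last at 1.33 ± 0.438. Acacb, the second acetyl-CoA carboxylase, which sits at the mitochondrial surface and makes the malonyl-CoA that restrains fatty acid oxidation, reached 616 (lowest 582, highest 661), far above the carboxylase of the synthetic pathway. The genes Fasn and Acaca, whose enzymes commit carbon to new fatty acids, were thus near the bottom of the order in this muscle, and the NADPH-producing malic enzyme was at its top.

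Acly (chromosome 11: 100476353 to 100528000, minus strand of GRCm38) encodes ATP citrate lyase, which splits citrate to give cytosolic acetyl-CoA. Its normalized counts were 264, 225, 202, 199 and 238 in vehicle-treated mice 1 to 5 and 218, 189, 211, 196 and 267 in pair-fed mice 2 to 6, and ran from 189.7 over a median of 238 to 304 in the GDF15 group. The 3 groups overlapped, and the highest value was in the GDF15 group. The log2 fold change was 0.14 (95% interval −0.12 to 0.40) for GDF15 against pair-fed, 0.08 (−0.18 to 0.33) for GDF15 against vehicle and −0.06 (−0.33 to 0.20) for pair-fed against vehicle, with limma adjusted p-values of 0.659, 0.872 and 0.847.

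Acaca (chromosome 11: 84129672 to 84401651, plus strand) encodes acetyl-CoA carboxylase 1, which makes the malonyl-CoA used for synthesis. It lay at 176, 149.6, 194, 146 and 150.4 in the vehicle group and at 174, 178, 177, 201 and 183 in the pair-fed group. Among GDF15-treated mice the lowest value was 149, the median 169.6 and the highest 204. The pair-fed mice were the most uniform and all lay inside or just above the range of the vehicle-treated mice. The log2 fold changes were −0.08 (−0.28 to 0.12) for GDF15 against pair-fed, 0.09 (−0.11 to 0.29) for GDF15 against vehicle and 0.17 (−0.04 to 0.37) for pair-fed against vehicle, and the smallest limma adjusted p-value was 0.385, for the last of these.

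Fasn (chromosome 11: 120805846 to 120824547, minus strand) encodes fatty acid synthase, whose promoter window is shown above. Normalized counts were 83.2, 105, 153, 35.6 and 157 in vehicle-treated mice 1 to 5, and 171, 204, 124, 159 and 208 in pair-fed mice 2 to 6. GDF15-treated mice ran from 93.4 to 203 with a median of 132. Vehicle-treated mouse 4 was far below all other mice, and 4 of the 5 pair-fed mice lay above every vehicle-treated mouse. Fasn had a log2 fold change of 0.84 for pair-fed against vehicle (SE 0.31, 95% interval 0.19 to 1.499, limma adjusted p = 0.151), 0.58 for GDF15 against vehicle (−0.05 to 1.21, adjusted p = 0.496) and −0.26 for GDF15 against pair-fed (−0.89 to 0.37, adjusted p = 0.752). Neither comparison with vehicle passed the threshold. With each library left out in turn the difference of Fasn ranged from 0.50 to 1.02 for pair-fed against vehicle and from 0.23 to 0.76 for GDF15 against vehicle, both lowest without vehicle-treated mouse 4. For GDF15 against pair-fed it ranged from −0.38 to −0.14, the last without GDF15-treated mouse 5.

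Me1 (chromosome 9: 86581371 to 86695953, minus strand) encodes the cytosolic malic enzyme, which makes NADPH while turning malate into pyruvate. It was measured at 5147, 4639, 4223, 5021 and 4849 in vehicle-treated mice, and at 5857, 4869, 4795, 6089 and 5499 in pair-fed mice. The GDF15 group spanned 4354 to 5003 with a median of 4677. Of the 5 pair-fed mice, 3 exceeded all mice of the other groups, and the other 2 fell inside them. Me1 had a log2 fold change of −0.21 for GDF15 against pair-fed (−0.34 to −0.08, limma adjusted p = 0.139), 0.18 for pair-fed against vehicle (0.04 to 0.32, adjusted p = 0.151) and −0.03 for GDF15 against vehicle (−0.16 to 0.10, adjusted p = 0.917). Without pair-fed mouse 3 or 4 Me1 passed the adjusted p-value but not the fold threshold, at −0.25 for both in GDF15 against pair-fed (limma adjusted p = 0.0689 and 0.0834) and at 0.22 for both in pair-fed against vehicle (adjusted p = 0.0737 and 0.0732). In GDF15 against pair-fed Me1 was weaker without pair-fed mouse 5 (−0.17, limma adjusted p = 0.332). With the mean level of Schwann cell markers as a covariate it was also at −0.17 (limma adjusted p = 0.433). In pair-fed against vehicle it lay between 0.14 and 0.22 with 1 library left out. The intervals of Me1 were among the narrowest of the set and stayed well inside the fold threshold of 0.6. Its exons overlap those of A330041J22Rik on the other strand, and the strand setting of the authors' quantification is not given in the sources used here.

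**Figure D2:**
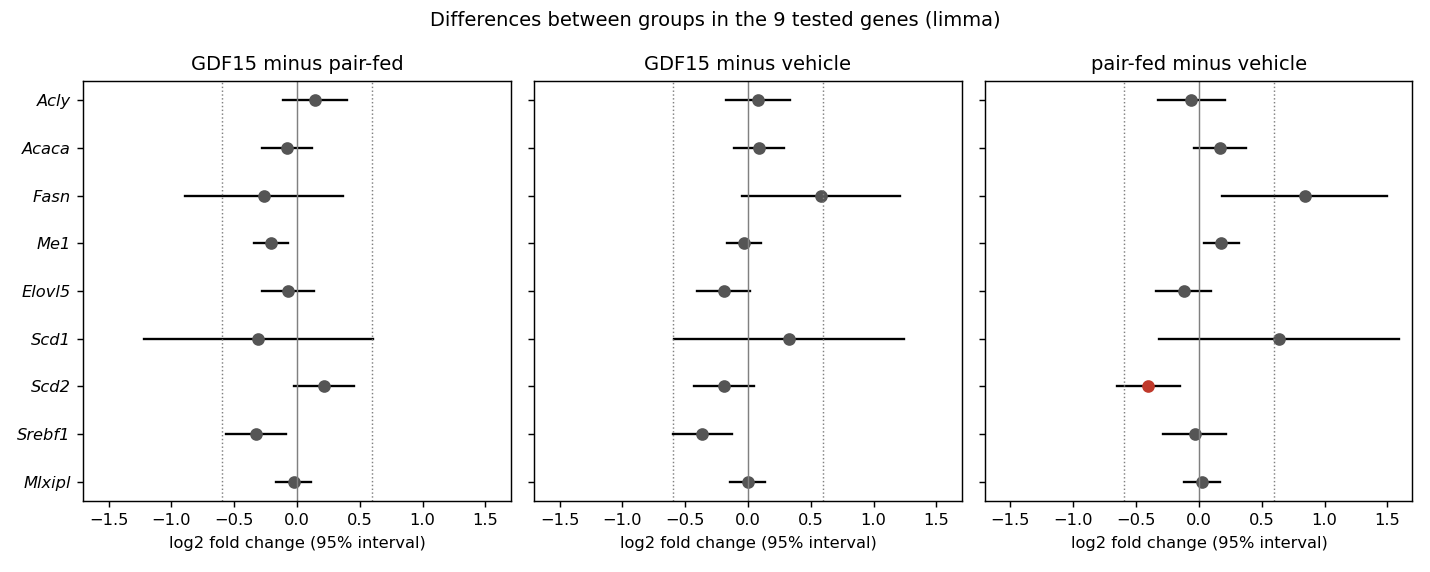
Log2 fold changes (x axes) of the 9 tested genes (rows) in the 3 comparisons, each point with its 95% interval from limma; dotted lines mark a log2 fold change of 0.6 in size, and the red point is the single value with an adjusted p-value under 0.1. That value is Scd2 for pair-fed against vehicle, at −0.40; the intervals of Fasn and Scd1 are the widest.

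Elovl5 (chromosome 9: 77917364 to 77984519, plus strand) encodes an elongase of polyunsaturated fatty acids. Its normalized counts were 124, 171, 143, 151 and 157 in vehicle-treated mice and 124, 148, 136, 148 and 128 in pair-fed mice. In the GDF15 group they ran from 118 over a median of 126 to 163, the last value in mouse 2 and the next highest 132. Most GDF15-treated mice thus lay near or below the lowest vehicle-treated mouse. The log2 fold change was −0.19 for GDF15 against vehicle (−0.40 to 0.02, limma adjusted p = 0.501), −0.12 for pair-fed against vehicle (adjusted p = 0.587) and −0.07 for GDF15 against pair-fed (adjusted p = 0.800).

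Elovl6 (chromosome 3: 129532355 to 129638495, plus strand) encodes the elongase that turns palmitate into stearate. With 7.20, 9.95, 3.98, 10.6 and 7.98 normalized counts in vehicle-treated mice, and 2.73, 3.44, 5.04, 3.28 and 9.35 in pair-fed mice, it fell below the minimum for testing. GDF15-treated mice ran from 3.84 over a median of 10.6 to 14.1. Of the 5 pair-fed values, 4 were at or below 5.04, but a few reads decide each of them. When the minimum was dropped, the log2 fold change of Elovl6 was 0.86 for GDF15 against pair-fed, 0.18 for GDF15 against vehicle and −0.68 for pair-fed against vehicle, with limma adjusted p-values of 0.342, 0.913 and 0.384.

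Scd1 (chromosome 19: 44394455 to 44407879, minus strand) encodes stearoyl-CoA desaturase 1, which makes oleate and palmitoleate and is abundant in adipose tissue. Its normalized counts were 585, 339.5, 552, 179.8 and 345 in vehicle-treated mice 1 to 5, and 542, 470.1, 1096, 356 and 623 in pair-fed mice 2 to 6. In the GDF15 group they ran from 169 over a median of 446 to 1409, so that both the lowest and the highest of the 16 mice had received GDF15. Scd1 had a log2 fold change of 0.63 for pair-fed against vehicle (SE 0.45, −0.32 to 1.59, limma adjusted p = 0.492), 0.33 for GDF15 against vehicle (−0.59 to 1.24, adjusted p = 0.846) and −0.31 for GDF15 against pair-fed (−1.22 to 0.61, adjusted p = 0.804). Leaving out 1 library moved the difference of Scd1 to between 0.0073 (without GDF15-treated mouse 2) and 0.62 (without GDF15-treated mouse 5) for GDF15 against vehicle, and to between −0.63 and −0.017 without the same mice for GDF15 against pair-fed. For pair-fed against vehicle it lay between 0.38 (without vehicle-treated mouse 4) and 0.81 (without pair-fed mouse 5). The spread of Scd1 within groups exceeded that of 98.5% of the tested genes, and that of Fasn exceeded 94.3%, whereas the other 7 tested genes ranked between 27.9% and 60.9%. In this fit, without a covariate, the intervals of Scd1 reach past the fold threshold in each comparison.

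Scd2 (chromosome 19: 44293674 to 44306864, plus strand) lies in the same cluster as Scd1 and encodes a second desaturase of this kind. It was measured at 246, 230.5, 256, 278 and 339 in vehicle-treated mice and at 229, 242, 181, 167 and 201 in pair-fed mice. Among GDF15-treated mice the lowest value was 199, the median 235 and the highest 273. Of the 5 pair-fed mice, 4 lay below every vehicle-treated mouse, and pair-fed mouse 3 lay among them. The log2 fold change was −0.40 for pair-fed against vehicle (SE 0.12, 95% interval −0.65 to −0.15, limma adjusted p = 0.0660), which passed the adjusted p-value but not the fold threshold. For GDF15 the differences of Scd2 were −0.19 against vehicle (−0.43 to 0.05, adjusted p = 0.574) and 0.21 against pair-fed (−0.02 to 0.45, adjusted p = 0.436). The pair-fed difference in Scd2 lost the adjusted p-value without vehicle-treated mouse 3, 4 or 5 or pair-fed mouse 4, 5 or 6, with values from −0.42 (limma adjusted p = 0.105, without vehicle-treated mouse 3) to −0.32 (adjusted p = 0.163, without vehicle-treated mouse 5) and a highest adjusted p-value of 0.171 (without pair-fed mouse 5). It also lost it with a block for the mouse number (−0.41, adjusted p = 0.118) and with the mean level of adipocyte markers (−0.37, adjusted p = 0.108) or of Schwann cell markers (−0.39, adjusted p = 0.113) as a covariate.

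Srebf1 (chromosome 11: 60199089 to 60222581, minus strand) encodes SREBP-1, the transcription factor through which insulin raises many of the enzymes above. Its normalized counts were 1028, 987, 1078, 1114 and 1128 in vehicle-treated mice and 1264, 918, 852, 1013 and 1218 in pair-fed mice. In the GDF15 group they ran from 655 over a median of 847 to 1066. Of the 6 GDF15-treated mice, 5 lay below the lowest vehicle-treated mouse, and 3 of them also lay below the lowest pair-fed mouse. Srebf1 had a log2 fold change of −0.36 for GDF15 against vehicle (SE 0.11, −0.60 to −0.13, limma adjusted p = 0.219), −0.33 for GDF15 against pair-fed (−0.57 to −0.09, adjusted p = 0.205) and −0.03 for pair-fed against vehicle (−0.28 to 0.21, adjusted p = 0.917). The unadjusted limma p-values of both GDF15 comparisons were under 0.05, at 0.00489 and 0.00939, but neither passed after adjustment over all genes, and these comparisons share the GDF15-treated mice. Without GDF15-treated mouse 3 Srebf1 passed the adjusted p-value but not the fold threshold. It was then at −0.44 against vehicle and −0.40 against pair-fed (limma adjusted p = 0.0993 and 0.0992). Against pair-fed it was weaker without pair-fed mouse 2 (−0.26, limma adjusted p = 0.393). With the mean level of Schwann cell markers as a covariate it was at −0.24 (limma adjusted p = 0.542). Against vehicle Srebf1 lay between −0.44 and −0.30 with 1 library left out. Exons of Srebf1 overlap with those of Rai1 on the other strand and of Mir6922 on the same strand. Besides Me1, such overlaps were also found for Elovl6 (Gm35986, other strand), Scd2 (Mir5114, same strand) and Mlxipl (Gm43500, other strand).

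Mlxipl (chromosome 5: 135089890 to 135138382, plus strand) encodes ChREBP, the glucose-responsive factor of the pathway. It was the steadiest member beside Me1, at 1299, 1294, 1137, 1442 and 1413 in vehicle-treated mice and 1311, 1435, 1327, 1251 and 1354 in pair-fed mice. The GDF15 group ran from 1155 over a median of 1323 to 1505. The groups overlapped, and the pair-fed range lay inside that of the GDF15 group. The log2 fold changes of Mlxipl were −0.03 (−0.17 to 0.11) between GDF15 and pair-fed mice, 0.00 (−0.14 to 0.14) between GDF15 and vehicle and 0.02 (−0.12 to 0.17) between pair-fed and vehicle. The sign of the first and of the last turned with libraries scaled to the same total. The smallest limma adjusted p-value was 0.898.

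Because Scd1 and several lipogenic enzymes are abundant in fat cells, the 9 genes were set beside the mean log2(normalized count + 1) of adipocyte markers. In bulk tissue, fewer cells of a type and less RNA per cell cannot be told apart. Of 7 listed markers, Adipoq, Plin1, Cidec, Lep, Retn and Cfd were tested and above 0 in every library, and Adrb3 lay below the minimum. Adipoq, the adiponectin gene, ran from 10.8 to 112 normalized counts in the vehicle group, from 4.88 to 239 in the GDF15 group and from 39.9 to 143 in the pair-fed group. Plin1, which coats the lipid droplet of fat cells, ran from 15.52 to 74.3, from 13.6 to 210.0 and from 26.8 to 106. The marker level was 4.78 ± 0.73 (SD, n = 5) in the vehicle group, 5.27 ± 1.51 (n = 6) in the GDF15 group and 5.36 ± 0.62 (n = 5) in the pair-fed group, and it overlapped between all groups (exact two-sided permutation tests, p = 0.926 for GDF15 against pair-fed, 0.532 for GDF15 against vehicle and 0.222 for pair-fed against vehicle, with adjusted values of at least 0.580 over the 6 tests of both marker levels).

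Over the 16 mice, Scd1 followed this level closely, with Pearson's r = 0.95 and Spearman's rho = 0.94 (permutation test, p = 1e-05 for each, the smallest that 100000 resamples can give). Among the 18 relations computed, of 9 genes with an adipocyte and a Schwann cell marker level, it was the only one past an adjusted p-value of 0.05 (adjusted permutation p = 0.00018). The correlation was 0.95 with group means subtracted, 0.91 without the 2 mice farthest from the median level, and 0.95, 0.97 and 0.92 within the vehicle, GDF15 and pair-fed groups. The mouse with the lowest Scd1, GDF15-treated mouse 5, also had the lowest marker level (2.99), and the mouse with the highest Scd1, GDF15-treated mouse 2, the highest (7.33). In the limma fit with this level as a covariate, the slope of Scd1 was 0.75 log2 units per unit (SE 0.059, 95% interval 0.62 to 0.87, adjusted p = 1.55e-06). This slope had the third smallest p-value among all tested genes, of which 0.203% had a slope past an adjusted p-value of 0.1. The tested genes include the 6 markers that make up the level, and Scd1 is not among these. The residual SD of Scd1 fell from 0.84 without the covariate to 0.26 with it, and its log2 fold changes became −0.24 for GDF15 against pair-fed, and −0.04 for GDF15 and 0.20 for pair-fed mice against vehicle.

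**Figure D3:**
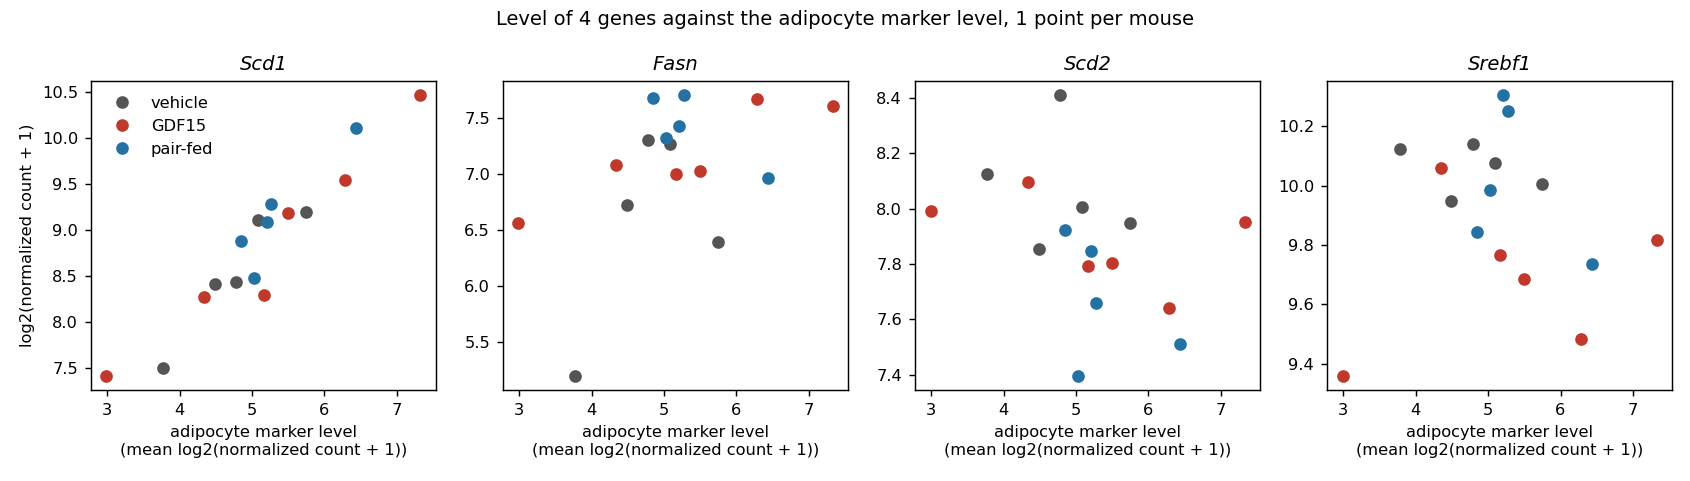
Level of Scd1, Fasn, Scd2 and Srebf1 (y axes, log2(normalized count + 1)) against the adipocyte marker level (x axes, mean log2(normalized count + 1) of 6 markers), 1 point per mouse coloured by group (grey vehicle, red GDF15, blue pair-fed). Scd1 rises along the axis with r = 0.95 in all 3 groups together, whereas Fasn scatters (r = 0.50) and the points of Scd2 (r = −0.39) and Srebf1 (r = −0.05) show no relation that passed the test over all 16 mice.

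Fasn, also a lipogenic enzyme of fat cells, was less tied to these markers. Its Pearson correlation with the adipocyte level was 0.50 and its Spearman correlation 0.34 (adjusted permutation p = 0.199 and 0.451), and it was 0.91 within the GDF15 group but −0.82 within the pair-fed group. Without the 2 mice farthest from the median level, the correlation with that level was −0.60 for Elovl5, −0.58 for Scd2 and −0.55 for Srebf1 (permutation p = 0.0232, 0.0293 and 0.0427), and none passed the adjustment (adjusted permutation p = 0.176, 0.176 and 0.192). Over all mice it was −0.04, −0.39 and −0.05. Mlxipl ran against the marker level (r = −0.56, rho = −0.56), which did not pass the adjustment (adjusted permutation p = 0.199 and 0.182). With the adipocyte covariate, the difference of Fasn between pair-fed and vehicle-treated mice was 0.70. The Schwann cell level, from 6 markers that include Mbp of the myelin sheath, was 5.43 ± 0.33 with vehicle, 5.63 ± 0.22 with GDF15 and 5.20 ± 0.56 with pair-feeding (exact two-sided permutation tests, p = 0.126 for GDF15 against pair-fed, 0.290 for GDF15 against vehicle and 0.444 for pair-fed against vehicle). No member correlated with it past adjustment. Of all tested genes, which include these 6 markers, 0.0422% had a slope on that level past an adjusted p-value of 0.1. The part of fat or nerve tissue in the group differences was not tested.

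The genes whose values over the 16 mice were most like those of Scd1 were Cidec (r = 0.96), Adipoq (0.95), Tmem45b (0.93), Pck1 (0.92) and Lep (0.90), and 3 of these 5 belong to the adipocyte list. For Fasn they were Fam71e1 (0.86), Tafa5 (0.83), Slc1a3 (0.83), Babam1 (0.78) and Mad2l2 (0.76), none of which is on the list. Among the members themselves, Scd1 and Fasn had the highest correlation (r = 0.58), followed by Me1 and Srebf1 (r = 0.54). The lowest was that of Scd1 and Mlxipl (r = −0.56). Scd1 and Scd2, neighbours on chromosome 19, were not alike (r = −0.38). These correlations over 16 libraries are descriptions and were given no test.

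The wider pathway was examined with 53 further tested genes that supply acetyl-CoA and NADPH, make or remove malonyl-CoA, elongate and desaturate fatty acids, control SREBP and ChREBP or form AMP-activated protein kinase. In GDF15 against pair-fed, 0 of the 53 were called by limma, where 0.279% of all tested genes were. At an unadjusted p-value under 0.05 there were 8, where 13.2% of all tested genes passed, and the median log2 fold change was 0.03. In each comparison with vehicle 1 was called and 52 were not. Of all tested genes, 0.304% were called for GDF15 and 0.819% for pair-fed mice against vehicle. The median of the 53 was −0.01 for GDF15 and 0.01 for pair-fed mice. The called gene was Mid1ip1 in both, and the 2 comparisons share the vehicle-treated mice. None of the 7 AMP-activated protein kinase subunits, 13 regulators of SREBP and ChREBP or 11 genes of acetyl-CoA and NADPH supply was called in any comparison by limma. At an unadjusted p-value under 0.05 there were 3 subunits, 2 regulators and 0 supply genes in GDF15 against pair-fed (13.2% of all tested genes), 0, 3 and 1 in GDF15 against vehicle (11%), and 2, 1 and 1 in pair-fed against vehicle (18.9%).

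Mid1ip1 (chromosome X: 10715013 to 10719690, plus strand) had 316, 264, 362, 341 and 330.0 normalized counts in vehicle-treated mice 1 to 5 and 443, 636, 509.8, 575 and 421 in pair-fed mice 2 to 6. GDF15-treated mice ran from 399 over a median of 552 to 638. Every GDF15-treated and every pair-fed mouse lay above every vehicle-treated mouse, while the GDF15 and pair-fed groups overlapped. Mid1ip1 rose by a log2 fold change of 0.76 in GDF15 against vehicle (SE 0.12, 95% interval 0.50 to 1.01, limma adjusted p = 0.00841) and of 0.67 in pair-fed against vehicle (SE 0.13, 0.40 to 0.94, adjusted p = 0.00940). Between GDF15 and pair-fed mice the difference of Mid1ip1 was 0.09 (−0.17 to 0.34, adjusted p = 0.803). Without pair-fed mouse 3 the rise in pair-fed mice was 0.59, just under the fold threshold, and on the deposited log2 values, which compress the folds of low genes, Mid1ip1 was at 0.48 for GDF15 and 0.42 for pair-fed mice. Its paralogue Thrsp (Spot 14), which forms a complex with MID1IP1 and is itself a marker of lipogenic tissue, differed by 0.12, 0.05 and −0.06 in the 3 comparisons (limma adjusted p = 0.721, 0.918 and 0.846). Exons of Mid1ip1 overlap with those of Gm14493 on the other strand. Kdr, the VEGF receptor of endothelial cells, was called lower in GDF15 against vehicle, at −0.66 (limma adjusted p = 0.00116), and at −0.50 in pair-fed against vehicle passed the adjusted p-value (0.00473) but not the fold threshold. Of the 5 endothelial markers, 5 had values below 0 in both comparisons, with medians of −0.19 and −0.17, and 3 and 4 of them had an unadjusted limma p-value under 0.05 (11% and 18.9% of all tested genes). Apart from Kdr none passed the adjusted p-value. Of 6 adipocyte markers, 6 had values above 0 in both comparisons with vehicle, with medians of 0.44 and 0.58, and with their level as a covariate Mid1ip1 was at 0.78 (limma adjusted p = 0.00788) and 0.70 (adjusted p = 0.00863). In GDF15 against vehicle, values above 0 were seen for 4 of 4 markers of fibro-adipogenic progenitors (median 0.35), 4 of 5 of macrophages (median 0.42), 3 of 3 of red blood cells (median 1.24) and 0 of 2 of satellite cells (median −0.24). In pair-fed against vehicle the counts were 2, 1, 2 and 1, with medians of −0.04, −0.13, 0.07 and −0.04. None of these 14 markers passed the limma adjusted p-value in either comparison, and 1 and 0 had an unadjusted p-value under 0.05. In GDF15 against pair-fed the counts above 0 were 4, 5, 3 and 0, with medians of 0.38, 0.56, 1.17 and −0.20, and none of the 14 passed the limma adjusted p-value. The part of endothelial and of these other cells in the result was not tested.

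**Figure D4:**
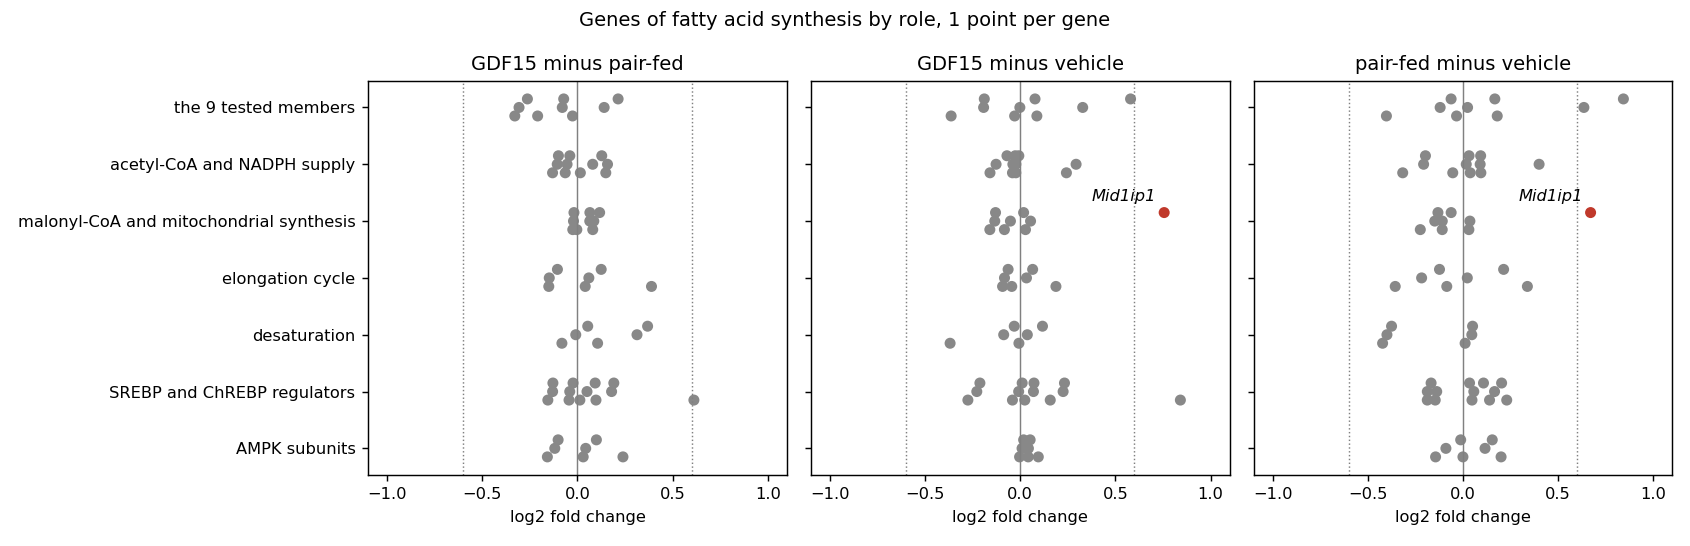
Log2 fold changes (x axes) of the 9 tested members and of 53 further genes of fatty acid synthesis, grouped by role (rows), in the 3 comparisons; 1 point per gene, red where both thresholds were passed, dotted lines at 0.6 in size. Mid1ip1 is the only red point, at 0.76 and 0.67 against vehicle.

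Acacb, the muscle carboxylase, ran from 5111 to 5811 with vehicle, from 4282 to 5769 with GDF15 and from 4335 to 5406 with pair-feeding, with log2 fold changes of 0.08, −0.05 and −0.13 (limma adjusted p = 0.657, 0.847 and 0.342). The delta-5 and delta-6 desaturases of polyunsaturated fatty acids, Fads1 and Fads2, had values of −0.38 and −0.42 in pair-fed against vehicle (adjusted p = 0.286 and 0.410), where Scd2 was at −0.40, Scd1 at 0.63 and Fads3 at 0.05. Of the 6 further tested genes of desaturation, 3 had values above 0 and 3 below 0 in that comparison. In GDF15 against vehicle they were −0.01 and −0.37 (adjusted p = 0.995 and 0.637), and in GDF15 against pair-fed 0.37 and 0.05 (adjusted p = 0.390 and 0.954). Srebf2, the factor of cholesterol synthesis, and Insig1, which holds SREBPs in the endoplasmic reticulum, were at −0.27 and −0.21 in GDF15 against vehicle (adjusted p = 0.349 and 0.473). They were at −0.15 and −0.17 in pair-fed against vehicle, beside −0.03 for Srebf1, and none of these passed the limma test. Scd3 lay between 0 and 6.42 normalized counts and was not tested.

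With the adjusted p-value alone, 4 of the 53 genes passed in pair-fed against vehicle, where 6.37% of all tested genes did, so that the share is near that of all genes. Besides Mid1ip1, 3 genes that were chosen after their values were seen stayed under the fold threshold. These were Ndufab1, the mitochondrial acyl carrier protein (−0.22, limma adjusted p = 0.0605), Fads6, a member of the fatty acid desaturase family (−0.40, adjusted p = 0.0746), and Nr1h2, which encodes the liver X receptor beta (0.20, adjusted p = 0.0733). All pair-fed mice had less Ndufab1 (1732 to 2234) than any vehicle-treated mouse (2258 to 2427), and more Nr1h2 (668 to 786) than any of them (583 to 629.7). With Mid1ip1, Hsd17b12 (41.7 to 58.7 against 65.9 to 73.0) and Nr1h3 (200.1 to 247.9 against 248 to 253), 5 of the 53 genes had no overlap in this comparison, against 5.44% of all tested genes. Hsd17b12, a ketoacyl-CoA reductase of elongation, was at −0.36 and Nr1h3, the liver X receptor alpha, at −0.19, and neither passed the adjusted p-value (0.180 and 0.279). Fads6 overlapped (222 to 313 against 296 to 439). In GDF15 against vehicle the adjusted p-value alone was passed by Mid1ip1 only, and in GDF15 against pair-fed by none, with 6 and 8 of the 53 at an unadjusted limma p-value under 0.05 (11% and 13.2% of all tested genes). Of 8 muscle fibre markers, 5 had values above 0 and 3 below 0 in pair-fed against vehicle, with a median of 0.13. Myh1, the fast myosin heavy chain IIx, was called lower (−0.68, limma adjusted p = 0.0123). Mb, the myoglobin gene (−0.50, adjusted p = 0.0515), and Ckm, the muscle creatine kinase (0.15, adjusted p = 0.0997), passed the adjusted p-value but not the fold threshold, and the other 5 did not pass the adjusted p-value, with Myh7 at 0.80 (adjusted p = 0.661), Myh2 at −0.61 (0.216), Ttn at 0.23 (0.105), Myh4 at 0.18 (0.272) and Acta1 at 0.10 (0.297). In GDF15 against pair-fed and in GDF15 against vehicle, 3 of the 8 markers had values above 0 and 5 below 0, with medians of −0.09 and −0.01. None passed the adjusted p-value in these 2 comparisons. At an unadjusted limma p-value under 0.05 there were 3 and 2 (13.2% and 11% of all tested genes). The part of fibre type in the differences between groups was not tested.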

How the data were processed

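RNA-seq of tibialis anterior muscle was available as 1 table of 16 libraries, 1 per mouse (5 vehicle, 6 GDF15, 5 pair-fed, the last numbered 2 to 6), grouped by label. Per the labels and the methods of the study, directional libraries were sequenced as read pairs, trimmed with Trim Galore and quantified with Salmon (mm10), and the authors scaled the libraries with DESeq2. Tool versions, the annotation and the strand setting are not given in the sources used here. The authors deposited log2 values in the form of the DESeq2 variance stabilizing transformation, in which counts of 0 share 1 floor. They were transformed back with the closed-form inverse. Of the low values (under 12) of genes with a single transcript, 87.9% to 96.7% per library were then within 0.1 reads of a whole multiple of 1 step, which gave the approximate depth. For genes annotated with more than 4 transcripts the share was 20.1% to 27.0%, so whole reads were not recovered and no count test was run. Precision is limited by depth for genes near the minimum, and intervals cover the spread between mice.

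The 11841 genes averaging 10 or more normalized counts were fitted with limma 3.58.1 in R 4.3.3 (lmFit, contrasts.fit, eBayes with a trend) on log2(normalized count + 1). The fit held the 3 groups without a covariate, and p-values were adjusted over all fitted genes by the Benjamini-Hochberg method. On this scale the fold change of low genes is understated. The script was tested on simulated data. Marker levels were compared by exact permutation tests and correlations by permutation (Python 3.11.15, scipy 1.17.1, pandas 2.3.3, numpy 2.4.6). All tests are two-sided. Positions, lengths and overlaps come from GENCODE vM21 (GRCm38).

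The genes and lists were chosen with earlier results of these data known. Named were all members, pathway genes called in any comparison, Acacb, Scd3, Fads1, Fads2, Srebf2, Insig1 and Thrsp whatever their values, Adipoq, Plin1, Mbp and Myh4 of the marker lists, and the 5 genes most correlated with Scd1 and with Fasn. A planned marker of the Schwann cell list is not reported here and was left out of its level. Alb, Kdr, Myh1, Myh7, Mb, Ckm, Ttn, Myh2, Acta1, Fads3, Hsd17b12, Nr1h3, Ndufab1, Fads6 and Nr1h2 were added after their values were seen. Other pseudocounts, minimums, scalings, weights, covariates and thresholds, a fit of only the compared groups, the mouse number as a block and each library left out were tried. A fit without the 3 libraries that stand apart in Myh7 was added after the data were seen.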

Additional observations from a re-analysis of the deposited data

Results flagged for a closer look

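Among 54 groups of normalized counts examined (18 genes in 3 groups), 3 held a mouse whose gap to the nearest other mouse was large against the range of its group by Dixon's criterion, and chance marks about 1 in 20 groups. Elovl5 was highest in GDF15-treated mouse 2, at 162.9 normalized counts, the mouse that also had the highest Scd1. Thrsp was highest in pair-fed mouse 3, at 149.6, 1 of the 3 libraries that stand apart in Myh7. Scd3 was highest in vehicle-treated mouse 3, at 5.79, with the other vehicle-treated mice at 0.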

How the results depend on the processing

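The count of members called was 0 under every alternative but 1, the adjusted p-value with no fold threshold, where it was 1 (Scd2, pair-fed against vehicle). Genes called in all were 33 for GDF15 against pair-fed, and 36 for GDF15 and 97 for pair-fed mice against vehicle. They were 7, 9 and 17 on the deposited log2 values, on which the folds of low genes are compressed by construction, 257, 91 and 754 with the adjusted p-value alone, and 18, 23 and 56 at an adjusted p-value under 0.05. GDF15 against pair-fed gave 8 with the Schwann cell covariate and 62 without the 3 libraries that stand apart in Myh7, and the cause was not tested. Leaving out 1 library in turn gave 15 to 62, 21 to 37 and 60 to 157, the highest of the first and last without pair-fed mouse 3.

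The mice are different animals, and of 14 pairs of libraries with the same number 0 had deviations correlated over 0.1 (−0.099 to 0.067). Libraries with different numbers were not compared in this way, so these values cannot decide whether the numbers pair the mice. With the replicate block 20 genes were called for GDF15 against vehicle, and the call of Mid1ip1 stayed. Fads2 turned to −0.0069 (GDF15 against pair-fed) and Fads1 to 0.00022 (GDF15 against vehicle) under the block.

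Mid1ip1 fell under the fold threshold on the deposited values (0.48 and 0.42 against vehicle) and without pair-fed mouse 3. Some signs reversed. For GDF15 against pair-fed these were Mlxipl, 0.016 with libraries scaled to the same total and 0.018 without the libraries apart in Myh7, Fads2, −0.11 without those libraries, and Insig1, 0.078 with the Schwann cell covariate. For GDF15 against vehicle they were Scd1, −0.038, and Mlxipl, 0.030, with the adipocyte covariate, Mlxipl, 0.00038, and Acacb, 0.0053, without the libraries apart in Myh7, and Fads1, 0.0026 on the deposited values. For pair-fed against vehicle Mlxipl turned to −0.023 with the same total, −0.00023 with quantile normalization and −0.018 without those libraries. Leaving out 1 library gave −0.066 to 0.010, −0.054 to 0.034 and −0.028 to 0.058 for Mlxipl in the 3 comparisons, −0.082 to 0.21 for Fads2 and −0.12 to 0.043 for Insig1 in GDF15 against pair-fed, −0.081 to 0.0053 for Acacb and −0.11 to 0.10 for Fads1 in GDF15 against vehicle, and −0.10 to 0.038 for Srebf1 in pair-fed against vehicle. The adipocyte marker level differed by −0.50 to 0.36 (GDF15 against pair-fed) and by 0.31 to 0.83 (pair-fed against vehicle, past the test without vehicle-treated mouse 1), and the Schwann cell marker level by 0.28 to 0.63 (GDF15 against pair-fed, past it without pair-fed mouse 3).

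The sign of some correlations with a marker level turned as well. Without the 2 farthest libraries they were 0.022 for Acly and −0.046 for Me1 with the adipocyte level, and −0.12 for Acly, 0.11 for Fasn, 0.065 for Me1 and −0.058 for Scd2 with the Schwann cell level. With group means subtracted they were −0.073 for Me1, 0.075 for Elovl5 and 0.038 for Srebf1 with the adipocyte level, and −0.070 for Acly, 0.020 for Fasn and 0.050 for Scd1 with the Schwann cell level.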
